A study of Mus musculus with 8 samples.

Results

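Genes that recognise, inactivate or signal bacterial endotoxin were followed across 8 RNA libraries of mouse microglia. They are Aoah, Cd14, Ly96, Ly86, Cd180, Myd88, Ticam1, Ticam2, Irak3 and Irak4, 10 of the 46983 genes of the deposited table. They were taken by symbol, each had a single row, and all 10 entered the test across genes. The set was chosen by its values in the comparison of the libraries named Qk-KO and WT in the authors' deposited table, led by Aoah, so that comparison is a description of these genes here and not a test of them.

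Total RNA came from microglia (resident brain macrophages) of the corpus callosum of FvB/C57BL6 hybrid mice. All mice carried Cx3cr1-CreER, a tamoxifen-inducible Cre recombinase expressed in Cx3cr1-positive cells, which include microglia but also other myeloid cells. Mice called WT had 1 loxP-flanked allele of Qk (QKLoxP/+) and mice called Qk-KO had both (QKLoxP/LoxP), so the WT mice also carried Cre and 1 floxed allele. All were given tamoxifen at 8 weeks and afterwards a diet with 0.2% cuprizone for 6 weeks; cuprizone binds copper and causes demyelination. By sample name, 4 libraries were WT and 4 were Qk-KO. The name and the genotype field disagree for 4 libraries, WT 2, WT 3, Qk-KO 1 and Qk-KO 3 by name, so each combination of name and field held 2 libraries. No difference below is therefore assigned to a genotype. The labels do not say whether a library came from 1 animal or several, so a p-value reflects library-to-library spread alone, possibly technical.

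Endotoxin, the lipopolysaccharide of Gram-negative bacteria, is carried to the cell by the binding protein Lbp and handed by Cd14 to a complex of the receptor Tlr4 with its soluble partner Ly96 (MD-2). The receptor then signals at the plasma membrane through Myd88 and the kinase Irak4 towards NF-kappaB, and from endosomes through the adaptors Ticam2 (TRAM) and Ticam1 (TRIF) towards interferon genes. Cd180 (RP105) and its partner Ly86 (MD-1) form a similar surface complex without a signalling domain of the Toll type, Irak3 (IRAK-M) restrains the Myd88 arm, and Aoah is a lipase that removes fatty acid chains from endotoxin and so inactivates it.

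The promoter windows of Aoah and Myd88 are shown because they were the members that held both of the motifs marked below, although Aoah had the widest spread between libraries of the 10 members and Myd88 one of the narrowest. Both are 300 bases long, from 250 bases before to 50 after the annotated start, read 5′ to 3′ from the RefSeq table of GRCm38.p6. Capitals mark GGAAGT, the core bound by PU.1 and other ETS factors of macrophages, and the interferon-stimulated response element, searched as GAAA and again GAAA after 2 bases of any kind, both on either strand. Aoah lies at chr13:20793863-20794162 on the plus strand and Myd88 at chr9:119339969-119340268 on the minus strand.
Aoah: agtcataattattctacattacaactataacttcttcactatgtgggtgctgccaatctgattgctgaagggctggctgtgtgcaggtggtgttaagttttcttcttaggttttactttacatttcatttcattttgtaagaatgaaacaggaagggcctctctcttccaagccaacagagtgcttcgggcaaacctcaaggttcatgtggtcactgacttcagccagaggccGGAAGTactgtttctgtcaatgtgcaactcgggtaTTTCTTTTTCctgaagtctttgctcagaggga
Myd88: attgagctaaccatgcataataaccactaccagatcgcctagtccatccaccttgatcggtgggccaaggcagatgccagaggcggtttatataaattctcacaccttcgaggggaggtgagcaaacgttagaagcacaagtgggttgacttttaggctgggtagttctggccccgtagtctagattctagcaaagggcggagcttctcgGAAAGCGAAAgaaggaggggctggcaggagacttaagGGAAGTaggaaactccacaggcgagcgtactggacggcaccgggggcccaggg
In Aoah the ETS core starts 17 bases before the start site, and the response element lies on the opposite strand 18 bases after it. In Myd88 the response element begins 40 bases and the ETS core 3 bases before the RefSeq start used for its window. This window lies inside Myd88 as annotated by GENCODE, chr9:119335934-119341411, whose outermost start is further upstream. The motifs do not overlap in either window. Of 32817 promoter windows of this length, 23.8% held GGAAGT, 3.43% held the response element and 0.811% held both. Among the members, 7 had an entry searched here, and Aoah and Myd88 were the 2 that held both motifs; Cd180 held GGAAGT alone. The kappa B motif bound by NF-kappaB, present in 8.46% of all windows, was not found in the windows of these 7 genes. These matches describe the letters of the windows and show no binding.

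Quaking, the RNA-binding protein encoded by Qk, is known to bind the core ACTAAC or ACTAAT (written as DNA) in RNA. In the longest annotated 3′ UTR of each member (GENCODE M21), read on the sense strand, the core occurred once in Ticam2, whose UTR has 3029 bases, and was not found in the other 9. Among UTRs at least as long, cut to the same length, the core was found in 26.7% at the 915 bases of Aoah, in 6.77% at the 233 bases of Cd14 and in 63.1% at the length of Ticam2. Introns, where quaking also binds, were not searched.

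Rough totals of reads assigned to genes ranged from 43.9 M to 58.5 M in named Qk-KO and from 59.7 M to 69.7 M in named WT libraries, without overlap. Qk itself, at 15.29 to 15.69 on the regularized log2 scale, overlapped between the groups under either label. Its difference, Qk-KO minus WT, was 0.08 ± 0.09 by name and -0.16 ± 0.08 by the genotype field (SE, limma). Neither passed an adjusted p of 0.05 in limma. The value of Qk covers all its annotated exons, also those outside any deleted part. The 9 microglia markers examined were all present, P2ry12, Tmem119, Cx3cr1 and Csf1r among them, and their summed level did not overlap between named groups, at 12400 to 14600 CPM (reads per 1 M reads assigned to genes) for the WT name and 9270 to 11000 CPM for the Qk-KO name. The sum was carried by a few genes: the log2 differences by name were -1.74 for P2ry12, -0.68 for Cx3cr1, -0.38 for Sall1 and -0.28 for Csf1r, and -0.08 to -0.02 for Tmem119, Siglech, Fcrls, Olfml3 and Trem2, with a median of -0.08. What part this has in the differences below was not tested. In RNA from whole samples, fewer cells of a type and less RNA per cell cannot be told apart. Markers of other immune cells were present at much lower sums and overlapped between the named groups: 319 to 722 CPM over 6 monocyte genes, most of it from Fn1, 9.16 to 268 CPM over 7 neutrophil genes, 91.0 to 156 CPM over 6 border macrophage genes and 9.27 to 13.1 CPM over 5 B cell genes. No marker of these lists was without reads. The sums over 6 astrocyte genes were 191 to 523 CPM for the WT name and 78.5 to 462 CPM for the Qk-KO name. All 6 had negative differences by name, with a median of -0.95, as did all 3 red cell genes (median -0.67), all 5 neuron genes (median -0.41) and 5 of 6 endothelial genes (median -0.62). Negative too were all 6 oligodendrocyte genes (median -0.14), all 6 monocyte genes (-0.21), 6 of 7 neutrophil genes (-0.32) and 5 of 6 border macrophage genes (-0.12). Of 5 B cell genes 4 were positive (median 0.04). Dendritic cell genes and T and NK cell genes had both signs (medians -0.03 and 0.07). Named WT 4 and named Qk-KO 4 stood apart, with the highest astrocyte sums, 523 and 462 CPM, and oligodendrocyte sums of 324 and 275 CPM, against 121 to 142 CPM in the other 6 libraries. The part of these cells in the results was not tested.

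Per exon length, Cd14 was by far the most abundant member and Aoah the least. Levels are given as CPM per kilobase of annotated exons, mean ± SD over all 8 libraries. Cd14 had 548 ± 122 and Ly86 143 ± 14.3, followed by Cd180 at 29.8 ± 4.80, Myd88 at 18.8 ± 1.11 and Ticam1 at 10.8 ± 1.20. The ranges of these 5 genes over the libraries did not overlap one another. Ly96 (6.28 ± 0.481), Ticam2 (6.05 ± 0.415) and Irak4 (5.92 ± 0.350) lay within one another's ranges. Irak3 (2.38 ± 0.378) and Aoah (1.42 ± 0.476) overlapped as well, since the highest Aoah level, 2.10 in named Qk-KO 3, exceeded the lowest Irak3 level, 1.74 in named Qk-KO 4. Tlr4, the receptor itself, had 12.6 ± 1.81, so its partner Ly96 was present at a lower level per length in every library and the co-receptor Cd14 at a far higher one. Lbp, which is made mainly by the liver, had 0.277 ± 0.136.

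**Figure D1:**
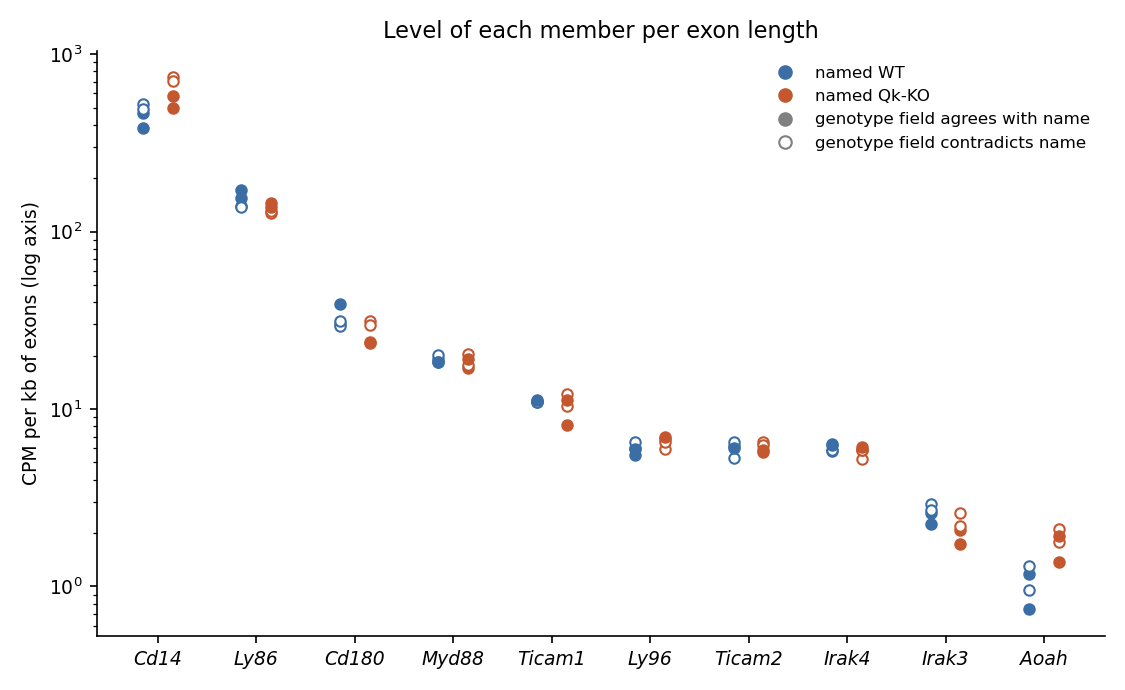
Level of the 10 members in each of the 8 libraries, in CPM per kilobase of exons on a log axis; colour gives the sample name, and open circles mark libraries whose genotype field contradicts the name. Cd14 sits between 382 and 740 in all libraries, and Aoah between 0.746 and 2.10.

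Aoah (ENSMUSG00000021322.7, chr13:20794113-21036617 in GRCm38, plus strand) was the member with the widest spread, 1.61 on the regularized log2 scale between the lowest and the highest library. Its values were 8.61, 8.78, 8.34 and 7.90 (named WT 1 to 4) and 9.31, 8.89, 9.50 and 9.26 (named Qk-KO 1 to 4). All libraries named Qk-KO lay above all libraries named WT, with named WT 4 lowest and named Qk-KO 3 highest. The means were 8.40 ± 0.38 and 9.24 ± 0.25 (SD, n = 4 each), a difference of 0.84 ± 0.20 (SE, limma; 95% interval 0.40 to 1.28), or 1.79-fold. In the authors' deposited table Aoah had a log2 fold change of 0.83 (SE 0.206, adjusted p = 0.0117), the value for which it was picked out. Of the 9 members with an adjusted p there, Aoah was the 1 called, where 1.22% of the 14150 genes with an adjusted p were called, 0.551% higher and 0.671% lower. Nothing is read from that share, since the same comparison was known when the genes were chosen. Aoah was also the 1 member of 10 whose named groups did not overlap, against 5.73% of the 22546 genes tested, 3.04% higher and 2.7% lower in libraries named Qk-KO. Without named WT 4 and named Qk-KO 4, which stood apart in astrocyte and oligodendrocyte markers, the difference of Aoah was 0.66 ± 0.17 (SE). Groups that do not overlap cannot come to overlap when libraries are left out.

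Cd14 (ENSMUSG00000051439.6, chr18:36725067-36726798, minus strand), the surface protein that passes endotoxin to Tlr4 and Ly96, was lowest in the same library as Aoah. Its log2 values were 15.45, 15.64, 15.56 and 15.12 (named WT 1 to 4) and 16.23, 15.63, 16.13 and 15.72 (named Qk-KO 1 to 4). Named Qk-KO 1 and 3 stood above the other 6 libraries, named WT 4 was lowest, and named Qk-KO 2 fell just under named WT 2, so the groups overlapped. The means were 15.44 ± 0.23 and 15.93 ± 0.30 (SD, n = 4 each), a difference of 0.49 ± 0.16 (SE, limma; 95% interval 0.13 to 0.85). The authors' deposited table gives Cd14 a log2 fold change of 0.50 (SE 0.159, adjusted p = 0.094), which does not pass 0.05. Without both libraries numbered 4 the difference of Cd14 was 0.45 ± 0.15 (SE). Within a library, the log2 ratio of Aoah to Cd14 was -7.04 ± 0.21 (named WT) and -6.69 ± 0.20 (named Qk-KO; SD, n = 4 each), with overlap.

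Ly96 (ENSMUSG00000025779.10, chr1:16688051-16709611, plus strand), without which Tlr4 does not bind endotoxin, had log2 values of 8.29, 8.44, 8.56 and 8.36 (named WT 1 to 4) and 8.52, 8.66, 8.60 and 8.58 (named Qk-KO 1 to 4). The groups overlapped in named WT 3 and named Qk-KO 1, and the difference was 0.18 ± 0.09 (SE; 95% interval -0.03 to 0.39). Tlr4 differed by -0.13 ± 0.11 (SE; limma adjusted p = 0.753). The log2 ratio of Cd14 to Tlr4 was highest in named Qk-KO 1 and 3, at 4.56 and 4.42, and named Qk-KO 2 and 4, at 3.63 and 3.60, lay inside the named WT range of 3.12 to 3.73. Lbp had values of 6.44, 7.02, 6.54 and 6.39 (named WT 1 to 4) and of 5.43, 5.10, 4.85 and 6.64 (named Qk-KO 1 to 4), a difference of -1.09 ± 0.36 (SE; limma adjusted p = 0.485). Only named Qk-KO 4 reached the named WT range.

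The related surface pair Cd180 (ENSMUSG00000021624.9, chr13:102693558-102739629, plus strand) and Ly86 (ENSMUSG00000021423.5, chr13:37345208-37419036, plus strand) was detected in every library. Ly86 had log2 values of 14.93, 14.79, 14.80 and 15.03 (named WT 1 to 4) and 14.77, 14.91, 14.74 and 14.72 (named Qk-KO 1 to 4), with a difference of -0.10 ± 0.07 (SE; 95% interval -0.26 to 0.05). Cd180 had 12.88, 12.86, 12.97 and 13.21 (named WT 1 to 4) and 13.06, 12.62, 12.94 and 12.49 (named Qk-KO 1 to 4), a difference of -0.20 ± 0.13 (SE; 95% interval -0.50 to 0.09). Both pairs of groups overlapped. Named Qk-KO 2 and 4 were the lowest libraries for Cd180, and their log2 ratios of Ly86 to Cd180, 2.29 and 2.22, were above the 1.72 to 2.05 of the other 6 libraries. Cd180 shares exon bases with Mast4 on the opposite strand, and its value is uncertain to that extent, as no source used here says whether strand was counted.

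Myd88 (ENSMUSG00000032508.8, chr9:119335934-119341411, minus strand) and Irak4 (ENSMUSG00000059883.16, chr15:94543643-94581815, plus strand) had the narrowest ranges of the 10 members. Myd88, the adaptor of the plasma membrane arm, had log2 values of 11.42, 11.51, 11.41 and 11.33 (named WT 1 to 4) and 11.62, 11.34, 11.38 and 11.38 (named Qk-KO 1 to 4). Its difference was 0.01 ± 0.07 (SE; 95% interval -0.15 to 0.17). Irak4, the kinase that Myd88 recruits first, had 10.79, 10.68, 10.72 and 10.73 (named WT 1 to 4) and 10.63, 10.76, 10.74 and 10.70 (named Qk-KO 1 to 4), with overlap. Its difference was -0.02 ± 0.05 (SE; 95% interval -0.15 to 0.10), so for these 2 genes the intervals leave room for changes of at most 0.17 in either direction. Myd88 shares exon bases with Acaa1a and Irak4 with Twf1, each on the opposite strand.

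Irak3 (ENSMUSG00000020227.10, chr10:120141648-120202130, minus strand), the inhibitory relative of Irak4, had log2 values of 9.04, 9.23, 9.15 and 8.80 (named WT 1 to 4) and 9.15, 8.82, 8.88 and 8.43 (named Qk-KO 1 to 4). The groups overlapped, with named Qk-KO 4 lowest and named WT 2 highest. The difference was -0.24 ± 0.16 (SE; 95% interval -0.59 to 0.11), and the authors' deposited table has -0.23 (adjusted p = 0.685). Irak3 shares exon bases with Tmbim4 and Gm47009 on the opposite strand.

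The named groups also overlapped for the endosomal adaptors Ticam1 (ENSMUSG00000047123.8, chr17:56269319-56276786, minus strand) and Ticam2 (ENSMUSG00000056130.9, chr18:46557291-46574533, minus strand). Ticam1 had 10.84, 10.87, 10.86 and 10.82 (named WT 1 to 4; SD 0.02) and 11.10, 10.47, 10.83 and 10.82 (named Qk-KO 1 to 4; SD 0.26). The highest and the lowest value thus both came from libraries named Qk-KO, and the difference was -0.04 ± 0.11 (SE; 95% interval -0.30 to 0.21). The authors' deposited table lists neither a p-value nor an adjusted p for Ticam1. Ticam2, which links Tlr4 to Ticam1, had 10.96, 10.75, 11.07 and 10.87 (named WT 1 to 4) and 11.14, 10.93, 11.06 and 10.85 (named Qk-KO 1 to 4), a difference of 0.08 ± 0.09 (SE; 95% interval -0.11 to 0.28). Ticam2 shares exon bases with Tmed7 on its own strand, and reads of these genes cannot be told apart there.

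**Figure D2:**
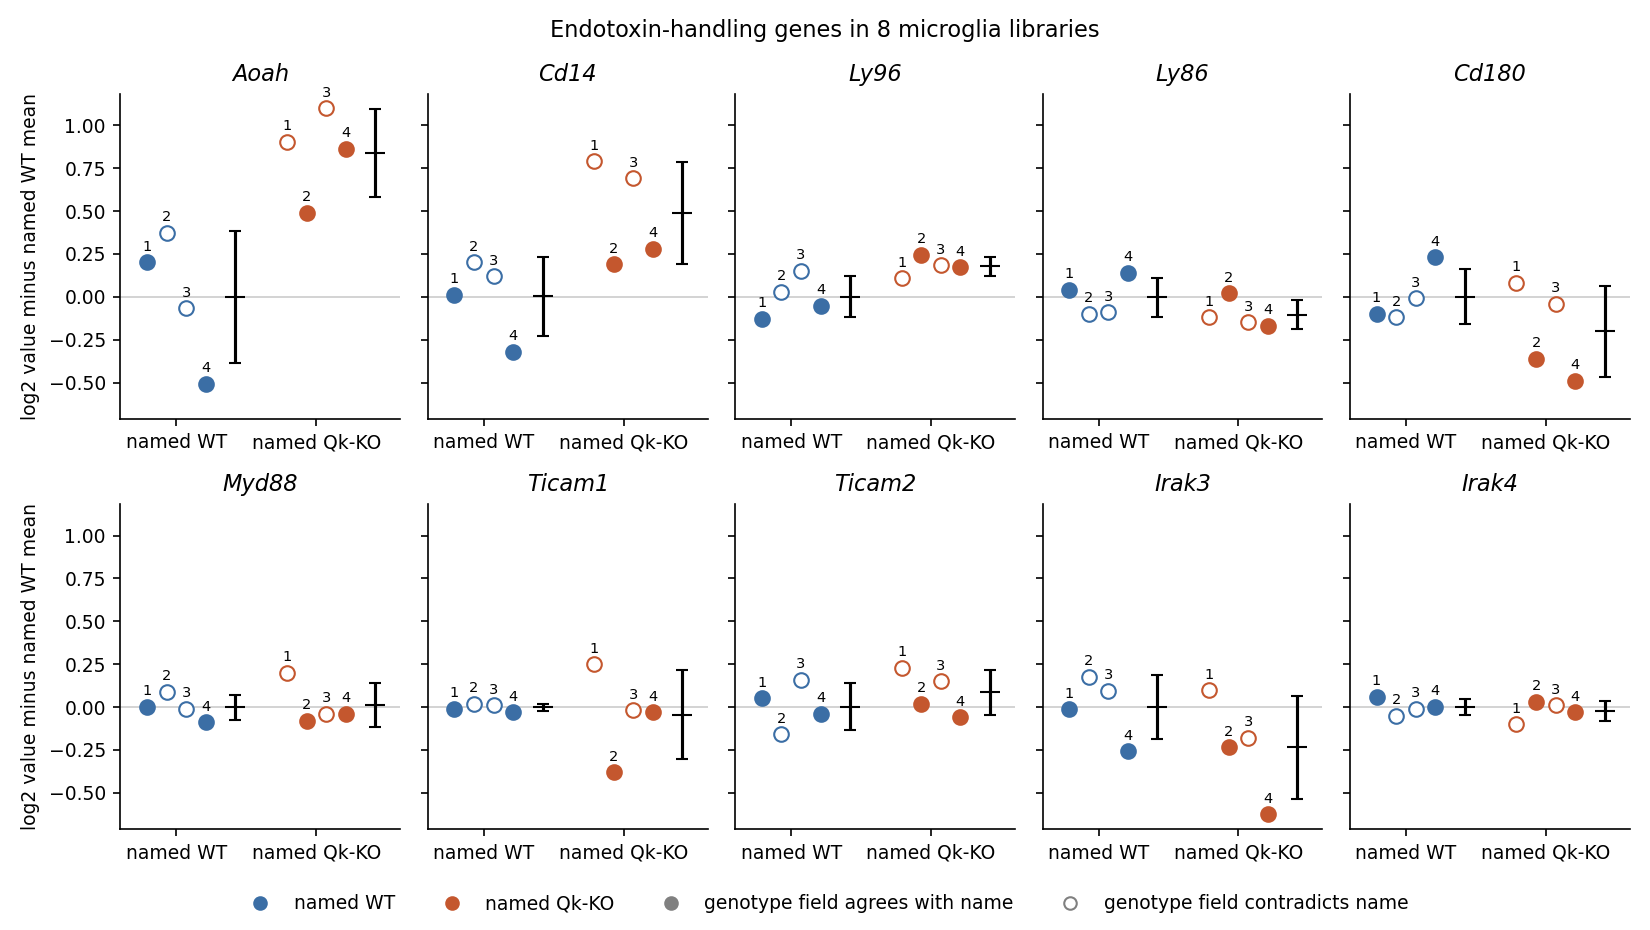
Regularized log2 value of each member in each library, relative to the mean of the libraries named WT; digits give the library number, open circles mark a genotype field that contradicts the name, and bars are mean ± SD (n = 4). Aoah is the one panel in which the named groups do not overlap, at 7.90 to 8.78 against 8.89 to 9.50 before centring.

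Over the 10 members the median named difference was -0.01, with 5 positive and 5 negative, and the median over the 13463 genes of at least 1 CPM was 0.01. In limma 1 of 22546 genes (0.00444%) passed an adjusted p of 0.05 and 8.26% had an unadjusted p under 0.05. No member passed, Aoah and Cd14 were the 2 of 10 with an unadjusted p under 0.05, and the smallest adjusted p, that of Aoah, was 0.365.

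Grouping by the genotype field did not enter the choice of genes and could be tested. Between libraries with Qk-KO and WT in that field, Aoah differed by -0.01 ± 0.35 (SE, 95% interval -0.81 to 0.79). Cd14 differed by -0.09 ± 0.23 (SE, 95% interval -0.62 to 0.43). This fit leaves the difference by name in the spread within groups. With the name as an additive term the SE was 0.21 for Aoah and 0.17 for Cd14. The largest difference was that of Cd180, at 12.74 ± 0.22 against 13.02 ± 0.14 (SD, n = 4 each), or -0.28 ± 0.11 (SE; 95% interval -0.54 to -0.03). Of the libraries with Qk-KO in the field, named WT 3 alone lay inside the range of the other group for Cd180, and its limma adjusted p was 0.9995. The adjusted p of the other 9 members was also 0.9995. In limma 0 of 22546 genes (0%) passed in this grouping and 602 (2.67%) had an unadjusted p under 0.05, among them Cd180 as the 1 member. The groups by field overlapped in all 10 members, and 1.85% of the genes tested did not overlap.

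**Figure D3:**
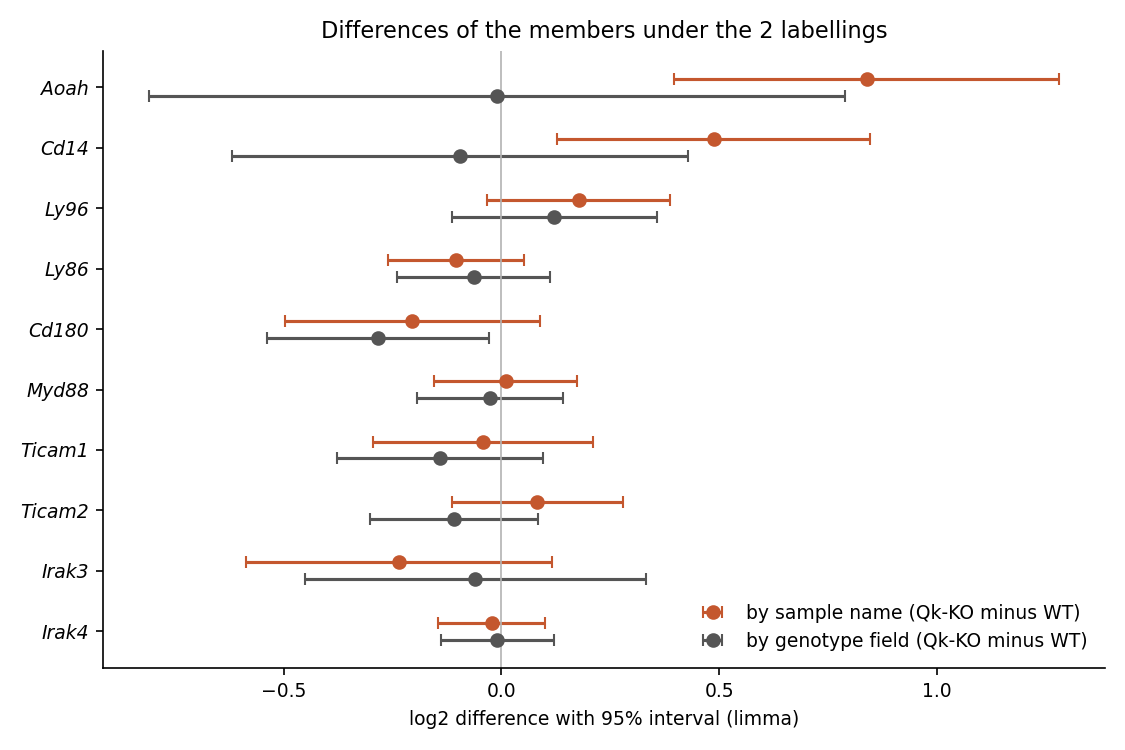
Log2 difference of each member, Qk-KO minus WT, with its 95% interval from limma, once by sample name and once by the genotype field (4 libraries against 4 in each). By name the intervals of Aoah (0.40 to 1.28) and Cd14 (0.13 to 0.85) lie above 0; by field the interval of Cd180 (-0.54 to -0.03) lies below it.

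The named difference was also taken within each value of the genotype field. Among libraries with WT in the field, Cd14 was higher by 0.90 in those named Qk-KO (named Qk-KO 1 and 3 against named WT 1 and 4), and among libraries with Qk-KO in the field the same difference was 0.08. The difference between these values, computed after the values by library were seen, was -0.82 ± 0.16 (SE; 95% interval -1.18 to -0.45), with a limma adjusted p of 0.281 over all genes. For Aoah they were 1.15 and 0.52 (difference -0.63 ± 0.37 SE; limma adjusted p = 0.533). Irak3 had 0.09 and -0.57 (difference -0.66 ± 0.25 SE; limma adjusted p = 0.412). In this comparison 5 of 22546 genes (0.0222%) passed and 11.2% had an unadjusted p under 0.05, as did Cd14 and Irak3. When the 4 libraries whose labels agree were taken alone, Aoah was higher by 0.83 and Cd14 by 0.39 in named Qk-KO, and in the other 4 libraries by 0.85 and 0.58.

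The rest of the pathway was read from 6 lists with 73 genes, all of them tested. None passed in limma (3 had an unadjusted p under 0.05), and of the 67 with an adjusted p in the authors' deposited table, Gbp2 was the 1 called. Over all genes tested 8.26% had an unadjusted p under 0.05, and 1.22% of genes with an adjusted p were called in the authors' deposited table, so the 3 are fewer than that share would give and the single call is near it. This guanylate-binding protein, an interferon-induced GTPase that acts on bacterial membranes and on cytosolic endotoxin sensing, was lower in all 4 libraries named Qk-KO, at 10.08, 9.88, 9.85 and 10.11, than in named WT 1 to 4, at 10.69, 10.31, 10.58 and 10.43. Its difference was -0.52 ± 0.10 (SE; limma adjusted p = 0.26, adjusted p = 0.00123 in the authors' deposited table). The others of the 7 genes for cytosolic endotoxin were not called. Casp4, the sensor protease, differed by 0.12 ± 0.29 and Gsdmd, the pore protein it cleaves, by 0.02 ± 0.05 (SE).

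Of 17 further genes of the Myd88 arm 0 passed in limma and 0 were called in the authors' deposited table, with a median difference of 0.02 and none at an unadjusted p under 0.05. Tirap, the adaptor that brings Myd88 to Tlr4, differed by -0.06 ± 0.11, Irak1 by 0.01 ± 0.07, Irak2 by 0.18 ± 0.11 and the ubiquitin ligase Traf6 by 0.13 ± 0.13 (SE). Of 11 genes of the Ticam1 arm none was called by either, with a median of 0.00. Traf3 differed by 0.00 ± 0.08, the kinase Tbk1 by 0.03 ± 0.05 and the transcription factor Irf3 by -0.02 ± 0.06 (SE).

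Of 14 inhibitors none was called by either, and 11 had positive differences, with a median of 0.08. The NF-kappaB inhibitors Nfkbia and Tnfaip3 were abundant, at 1390 and 1460 CPM, and differed by 0.05 ± 0.09 and 0.08 ± 0.22 (SE). Inpp5d, a lipid phosphatase of myeloid cells, differed by 0.02 ± 0.06, Tollip by 0.06 ± 0.08 and the receptor Sigirr, which dampens Toll-like receptor signalling, by -0.26 ± 0.29 (SE). Tnip1, a partner of Tnfaip3, was named after its values were seen: it and Gbp2 were the 2 of 73 pathway genes (2.74%) whose named groups did not overlap, a share under the 5.73% of all genes tested. Its values were 10.84, 10.91, 10.75 and 10.74 (named WT 1 to 4) and 11.06, 10.94, 11.10 and 10.92 (named Qk-KO 1 to 4), a difference of 0.20 ± 0.07 (SE; limma adjusted p = 0.489).

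Of 22 genes that endotoxin induces in macrophages, none was called in limma or in the authors' deposited table, which gives 16 of them an adjusted p, and the median difference was 0.06. The differences of these genes ran from -0.80 to 0.66. Tnf was 14.93 ± 0.38 under the WT name and 14.71 ± 0.54 under the Qk-KO name, and Il1b was 15.04 ± 0.65 and 15.15 ± 0.98 (SD, n = 4 each). Il1b was lowest in named Qk-KO 4 (13.82) and named WT 4 (14.08), as Tnf was (14.08 and 14.41). It was highest in named Qk-KO 1 (16.06), the library that was also highest for Cd14. Cd14 was lowest in named WT 4, but in named Qk-KO 4 it was 15.72, above every library named WT. Il6, Cxcl10, Ccl5 and Acod1, which makes itaconate in activated macrophages, differed by 0.14 ± 0.26, 0.21 ± 0.16, -0.06 ± 0.17 and 0.04 ± 0.51 (SE).

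**Figure D4:**
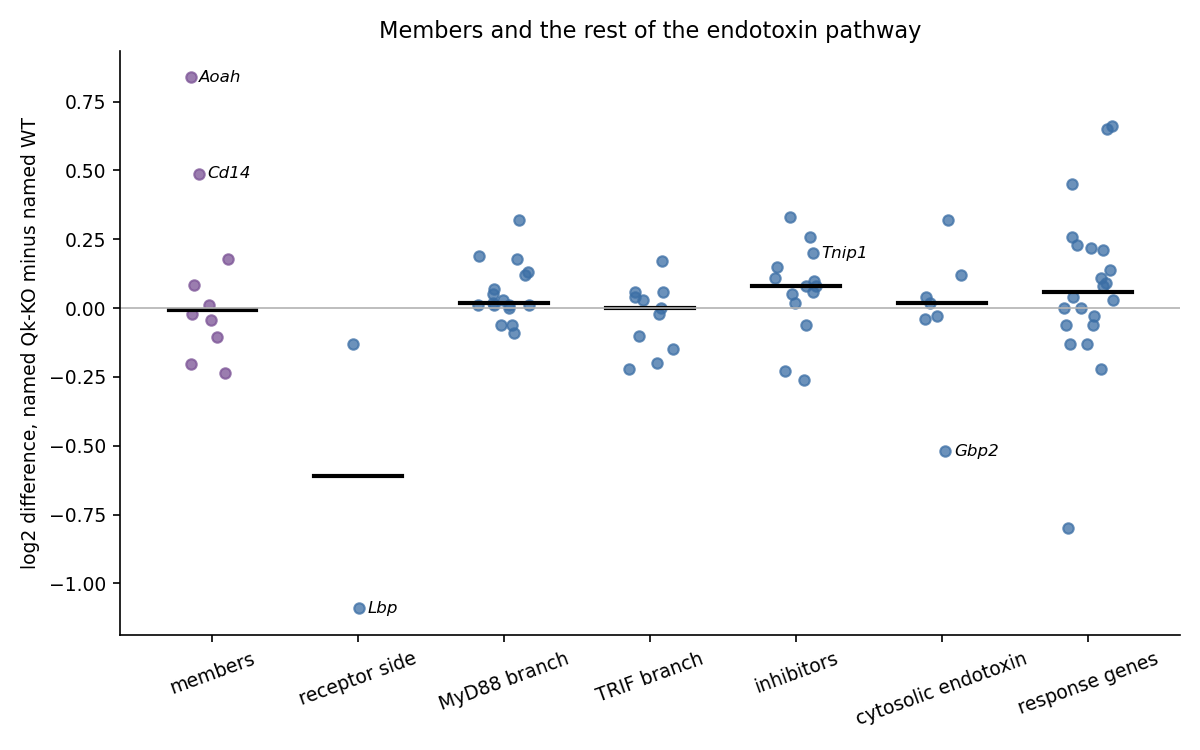
Log2 difference between libraries named Qk-KO and named WT for the 10 members and for 6 lists of other genes of the endotoxin pathway; each point is a gene and each black line the median of its list. Aoah at 0.84 and Cd14 at 0.49 lie apart from the other members, and the medians of the lists for the Myd88 and Ticam1 arms are 0.02 and 0.00. Lbp on the receptor side is at -1.09, and the response genes run from -0.80 to 0.66.

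The profiles most like that of Aoah were sought among 11808 protein-coding genes of at least 1 CPM, by the root-mean-square distance between log2 values of the 8 libraries after each gene was centred on its mean. The 5 nearest were Plxna1 (0.12), Trp53i11 (0.20), Stk17b (0.20), Jdp2 (0.21) and Cnbp (0.22), where the median gene of that pool lay at 0.53. Plxna1, a semaphorin receptor, had 9.49, 9.63, 9.35 and 9.11 (named WT 1 to 4) and 10.40, 10.04, 10.52 and 10.21 (named Qk-KO 1 to 4), the same order of libraries as Aoah. The 5 nearest to Cd14 were Stk17b (0.08), Herpud1 (0.08), Zc3h12c (0.09), 5430427O19Rik (0.09) and Ero1l (0.10), against a median of 0.36. Stk17b, a kinase, was on both lists, and Herpud1 and Ero1l belong to protein quality control of the endoplasmic reticulum. Since Aoah and Cd14 were chosen for their named differences, genes near them share such a difference by construction.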

How the data were processed

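RNA of 8 microglia libraries was measured by sequencing, 4 named WT and 4 named Qk-KO. For the authors' table, the tools in the submitters' processing notes are HISAT2, StringTie, DESeq2 and FastQC, with build mm10. Their versions and the annotation are not given in the sources used here. As deposited, the authors' files come to 1 table, whose library columns hold log2 values, read from their behaviour as regularized values shrunken towards the gene mean at low counts, with genes without reads at 0. The deposited table also gives, per the file headers, a mean depth-scaled signal, a log2 fold change with its SE, a test statistic, which is a score, and a p-value and adjusted p-value. No counts were used here, so limma 3.58.1 in R 4.3.3 (trend and robust empirical Bayes, no pseudocount) was fitted to the log2 values of 22546 genes that reached a normalized value of 1 in 4 or more libraries, with Benjamini-Hochberg adjustment over all of them and calls at 0.05.

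CPM of a library, also in the marker sums and the levels per kilobase, is its value off the log2 scale over the sum of all genes. The mean CPM of a gene is its mean depth-scaled signal over the sum of that signal. It was used for the cut-off of 1 CPM and for the levels of Nfkbia and Tnfaip3. Exon lengths and coordinates are from GENCODE M21 (GRCm38, the mm10 build), matched by Ensembl identifier without its version. Shrinkage understates changes of genes with few reads. Depth was estimated from the steps of the mean signal in genes seen by 1 library alone. The fit was checked on simulated data with known changes, which it recovered in part. The members and lists were chosen with earlier results of these data known. Besides the members, the text names genes of the written lists, any list gene called by limma or in the authors' deposited table, and the 5 nearest profiles of Aoah and Cd14. Medians, counts and no set tests describe the lists. Acod1 was matched by its identifier, and 1 gene of the microglia markers is not reported here. Alternatives covered the replicate block, additive labels, empirical Bayes options, filters, scalings, label-consistent libraries and leaving out each library.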

Additional observations from a re-analysis of the deposited data

Results flagged for a closer look

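Myd88 in named Qk-KO 1, at 11.62, stood apart from the other 3 libraries named Qk-KO, which lay between 11.34 and 11.38. The gap to the nearest of them was 0.849 of the range of that group, above Dixon's 95% critical value for groups of 4. It was 1 of 20 groups examined (10 members, each in 2 named groups), and chance flags about 1 group in 20.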

How the results depend on the processing

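The named differences of Aoah and Cd14 were positive in all 19 alternatives run. Those that change only the model or the filter return the same difference, and the others use the same libraries, all or in part. Aoah and Cd14 were chosen with this contrast known, so the signs are no independent support. Leaving out 1 library moved Aoah between 0.67 (without named WT 4) and 0.96 (without named WT 2), and Cd14 between 0.38 (without named WT 4) and 0.59 (without named Qk-KO 2). Of the 10 members, 5 kept 1 sign throughout, and Cd180, Myd88, Ticam1, Ticam2 and Irak4 changed sign or came to 0.00. The number of members whose named groups do not overlap was 1 under every scaling. Filters and models do not alter a member's values, so it stays at 1 there, and leaving out libraries can only keep or raise it. It was 1 without both libraries numbered 4 (an alternative chosen after seeing the data). With 1 library left out it was 1 to 3 (3 without Qk-KO 2, 2 without WT 2, WT 3 or Qk-KO 1). It was 6 in the 4 libraries whose labels agree and 3 in the other 4, and groups of 2 separate more easily. The share over all genes was not taken for any smaller set of libraries. The 5.73% given above holds for all 8 libraries and is no measure for these counts, so nothing is read from them. Genes called by limma in the named contrast numbered 1, but 173 in the authors' deposited table, 0 among genes of at least 1 CPM, 3 in the libraries whose labels agree, 9 in those whose labels disagree, 4 without both libraries numbered 4, and 0 (without named Qk-KO 3) to 7 (without named Qk-KO 4) with 1 library left out, with 3 for WT 2 or Qk-KO 2 and 2 for Qk-KO 1; the cause was not tested. Of the pathway genes, 0 were called in limma under these settings and 1 in the authors' deposited table. By genotype field 0 genes were called, but 3 with the replicate block, 3 where labels agree, 9 where they disagree, 1 without both libraries numbered 4, and 0 to 1 with 1 library left out (1 for WT 1, WT 4 or Qk-KO 2). No member passed in any of the 18 genotype-field alternatives (lowest adjusted p 0.134).

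Small genotype-field differences changed sign. With the replicate block Aoah was 0.10, Cd14 0.02, Myd88 0.05 and Ticam1 0.01. Both libraries numbered 1 have WT in the field and both numbered 2 have Qk-KO. Every genotype-field difference with this block, also of the genes called, therefore rests on the libraries numbered 3 and 4 alone. Where labels agree Aoah was 0.83 and Cd14 0.39, and where they disagree Ly96 was -0.06, Ly86 0.04, Irak3 0.18 and Irak4 0.01; there the field and the name are the same split or its mirror. Without both libraries numbered 4 Ly86 was 0.02 and Irak3 0.04. With 1 library left out the ranges were -0.32 to 0.21 for Aoah, -0.30 to 0.07 for Cd14, -0.06 to 0.04 for Myd88, -0.17 to 0.10 for Irak3 and -0.04 to 0.01 for Irak4. The sample names give same-numbered libraries of the named groups only a common number. The correlation across genes of their deviations ran from 0.0462 to 0.458, and 6 of the 8 libraries correlated best with their own number. Whether such pairs share anything else was not tested. The replicate block left the named count at 1, while genes with an unadjusted limma p under 0.05 rose from 1863 to 2924. The SE of the named difference of Cd14 went from 0.16 to 0.12, and that of Aoah stayed at 0.20.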
